A study of Bos taurus with 50 samples.

Results

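Developmental and hormone-responsive transcription factors were followed in the endometrium of lactating dairy cows. The members are the genes whose symbol in the study's lists of differentially expressed genes belongs to the HOX, FOX, SOX, KLF, PAX, MSX, GATA, nuclear receptor, retinoic acid receptor, TCF/LEF, HES/HEY, ETS, bZIP and related families. There were 48 such genes of the 18830 in the count table. The symbol rule also took in 5 genes that are not DNA-binding factors of these families: FOXRED2 (an oxidoreductase of the endoplasmic reticulum), RARRES2 (the secreted protein chemerin), PBXIP1, RUNX1T1 and TCF25.

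Stranded mRNA libraries were made from endometrial biopsies taken at week 5 and week 9 after calving. CycW5 cows were cycling at week 5, with a corpus luteum and circulating progesterone (P4), and gave 10 libraries at each week. NoCycW5 cows had no corpus luteum and no detectable P4 at week 5, and gave 12 libraries at week 5 and 11 at week 9. CycNoP4 cows were cycling at week 5 but without P4 influence at the biopsy, and gave 4 libraries at week 5 and 3 at week 9. All cows were synchronized with GnRH, a P4 insert and prostaglandin with the week 9 biopsy timed to 1 luteal day, so week and cycle stage cannot be told apart. The labels link no library to a cow, so the comparison of weeks was unpaired, and P-values measure the spread between libraries. Totals were 21592867 to 32813237 reads counted on genes per library (median 28126022.5).

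These families set position and cell identity in the embryonic reproductive tract, and many stay in use in the adult uterus. HOX genes mark position along the tract, PAX2 and SOX17 act in epithelium of the Müllerian duct lineage, and MSX2 acts in epithelial-stromal signalling. Nuclear receptors such as RARA read small lipophilic ligands, HES1 and HEY2 are targets of Notch, and TCF/LEF factors are the nuclear arm of the Wnt pathway. In the uterus, P4 from the corpus luteum and estradiol from the follicle change the expression of many such genes over the cycle.

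The choice of members used these data. The study's lists came from subsets of the CycW5 and NoCycW5 libraries: 14 members were listed for CycW5 against NoCycW5 at week 5, 18 for week 9 against week 5 in NoCycW5, 5 for week 9 against week 5 in CycW5, 3 for the groups at week 9, and 17 only for associations with the microbiota. Where a comparison chose a member, its difference is given as a description with no test. A member that a comparison did not choose was tested, although it was then also known not to be on the study's list for that comparison. Such tests among CycW5 and NoCycW5 cows also share libraries with the comparisons that chose the members. The CycNoP4 cows were left out of the study's analysis, so neither week of these cows had a library that chose a member. Their weeks were fitted together with the other groups, which share the estimate of the spread and the filter on low counts. Levels are TMM-normalized read counts scaled to library size (CPM), which do not correct for gene length, and were compared only within a gene. Differences are log2 fold changes with their standard error, and a gene was called where the P of edgeR's quasi-likelihood test, adjusted over all genes by Benjamini and Hochberg (BH P), was at most 0.05.

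Of the 48 members, 40 had a mean of at least 1 CPM in some group. FOXA1, FOXN1, HAND1, TBX15, TBX18, SOX2, GATA1 and HOXC9 were below 1 CPM in every group. FOXA1, a forkhead factor of endodermal and hormone-responsive epithelium, appears in 3 of the study's lists, yet it had no read in 23 of 50 libraries and at most 22 reads in any. FOXA1, FOXN1, HAND1 and TBX15 passed the filter on low counts in no comparison, TBX18 passed it only in those with CycNoP4 cows and SOX2 only in week 9 against week 5 of CycNoP4 cows. This left 42 members tested among CycW5 and NoCycW5 cows, 43 in the week 5 comparisons of CycNoP4 cows and 44 in their comparison of weeks. No count over these tested members stands for all 48.

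From week 5 to week 9 in CycNoP4 cows, 9 members rose and 4 fell. SOX17, PAX2, FOXS1, NR0B1, KLF9, SOX15, RUNX1T1, FOXRED2 and TCF12 were the members that rose, and MSX2, RARA, HES1 and FOXA3 were those that fell. The 13 called members were 29.5% of the 44 tested, beside a background of 19.6% of 16120 genes (9.74% higher and 9.85% lower). The 3 week 9 libraries did not overlap the 4 week 5 libraries in 16 of the 44 members, where 26.2% of all genes tested did not overlap. The median absolute difference was 0.675 on the log2 scale over the members and 0.422 over all genes. The counts describe the members only, since no test set them against other genes.

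**Figure D1:**
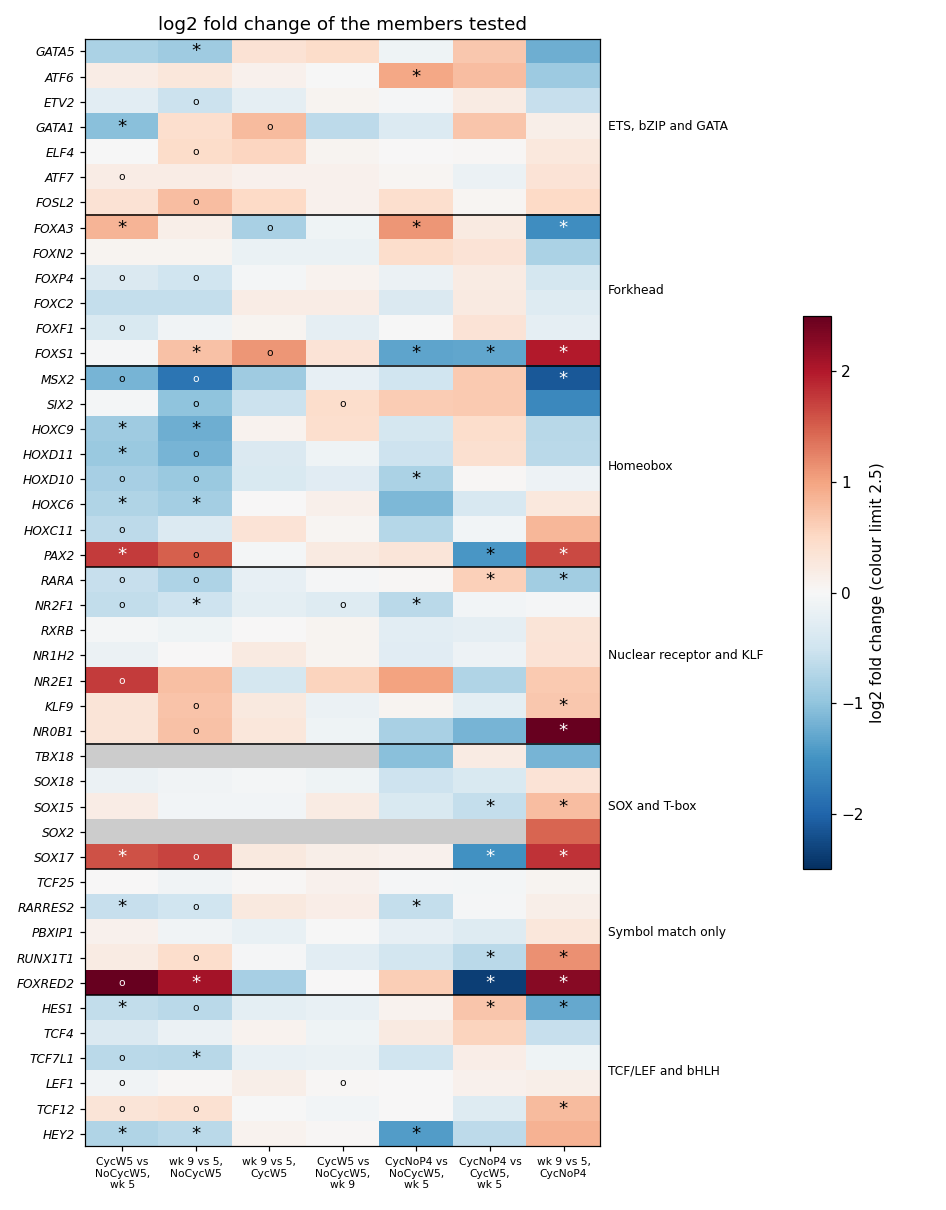
log2 fold changes (colour; red higher in the first-named group or week, blue lower, grey not tested) of the 44 members tested in at least 1 comparison (rows, by family) in 7 comparisons (columns). An asterisk marks a BH P of 0.05 or less and a circle a value that chose the member and was not tested. The columns for week 9 against week 5 in CycW5 cows and for the groups at week 9 hold no asterisk, and the last column holds 13.

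SOX17, a factor of endoderm, endothelium and uterine epithelium, was lowest in both groups without P4 at week 5. In CycNoP4 cows it measured 20.2, 21.7, 24.9 and 43.6 CPM at week 5 and 76.8, 95.8 and 116 CPM at week 9. No week 9 library of these cows was as low as the highest at week 5, and the difference was 1.80 ± 0.47 (SE; BH P = 0.00937). In NoCycW5 cows at week 5 it ranged from 12.4 to 41.1 CPM (median 23.5, n = 12) and in CycW5 cows from 38.1 to 102 CPM (median 86.2, n = 10). These groups overlapped only through the lowest CycW5 library, and SOX17 was higher by 1.60 ± 0.27 in CycW5 cows (BH P = 3.22e-05). That test shares the NoCycW5 week 5 libraries with the comparison that chose SOX17, in which it differed by 1.69 ± 0.27 between weeks.

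PAX2, a paired-box factor of the Müllerian duct and kidney, gave the same order of groups. It measured 13.5, 19.1, 22.2 and 28 CPM at week 5 and 38.7, 66.9 and 90.6 CPM at week 9 in CycNoP4 cows, with no overlap (1.66 ± 0.52, BH P = 0.0214). Leaving out 1 of 3 libraries (51, 79 or 94) ended that call, with a BH P of up to 0.113. At week 5 it ranged from 5.24 to 25.5 CPM (median 16.1) in NoCycW5 cows and from 24.5 to 102 CPM (median 49.3) in CycW5 cows. Only the ends of these ranges met, and PAX2 was higher by 1.75 ± 0.30 in CycW5 cows (BH P = 3.03e-05). That test shares the NoCycW5 week 5 libraries with the comparison that chose PAX2, in which it differed by 1.495 ± 0.292 between weeks.

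Both genes were near the NoCycW5 level in CycNoP4 cows at week 5. SOX17 differed there by 0.10 from NoCycW5 cows (95% interval −0.47 to 0.68) and by −1.50 ± 0.33 from CycW5 cows (BH P = 0.00335). PAX2 differed by 0.31 (−0.36 to 0.98) from NoCycW5 cows and by −1.46 ± 0.39 from CycW5 cows (BH P = 0.0114). In bulk tissue, fewer cells of a type and less RNA per cell cannot be told apart. The summed CPM of the 6 epithelial markers with an identifier (EPCAM, KRT8, CLDN3, CLDN4, CLDN7 and MUC1, of 10 listed) ranged at week 5 from 351 to 630 (median 498) in NoCycW5 cows, from 540 to 1563 (median 929) in CycW5 cows and from 596 to 1186 (median 786) in CycNoP4 cows. At week 9 its medians were 1228, 1169 and 963. At week 5 the median of the sum was thus lower in NoCycW5 cows than in either other group, while SOX17 and PAX2 were called higher in CycW5 cows alone. Of the 4 epithelial markers that CycW5 against NoCycW5 at week 5 had not chosen, 3 were called higher in CycW5 cows. The median log2 difference of all 6 was 1.256. MUC1 was not higher in CycW5 cows (−0.54 ± 0.22, BH P = 0.0703). Of the 6 markers, 2 were called higher in CycNoP4 than in NoCycW5 cows, KRT8 (0.93 ± 0.17, BH P = 0.0033) and CLDN7 (0.86 ± 0.26, BH P = 0.0328). Against CycW5 cows, 2 of the 6 were called lower and 0 higher in CycNoP4 cows, with a median log2 difference of −0.264. The part of epithelial markers in the differences of SOX17 and PAX2 was not tested.

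**Figure D2:**
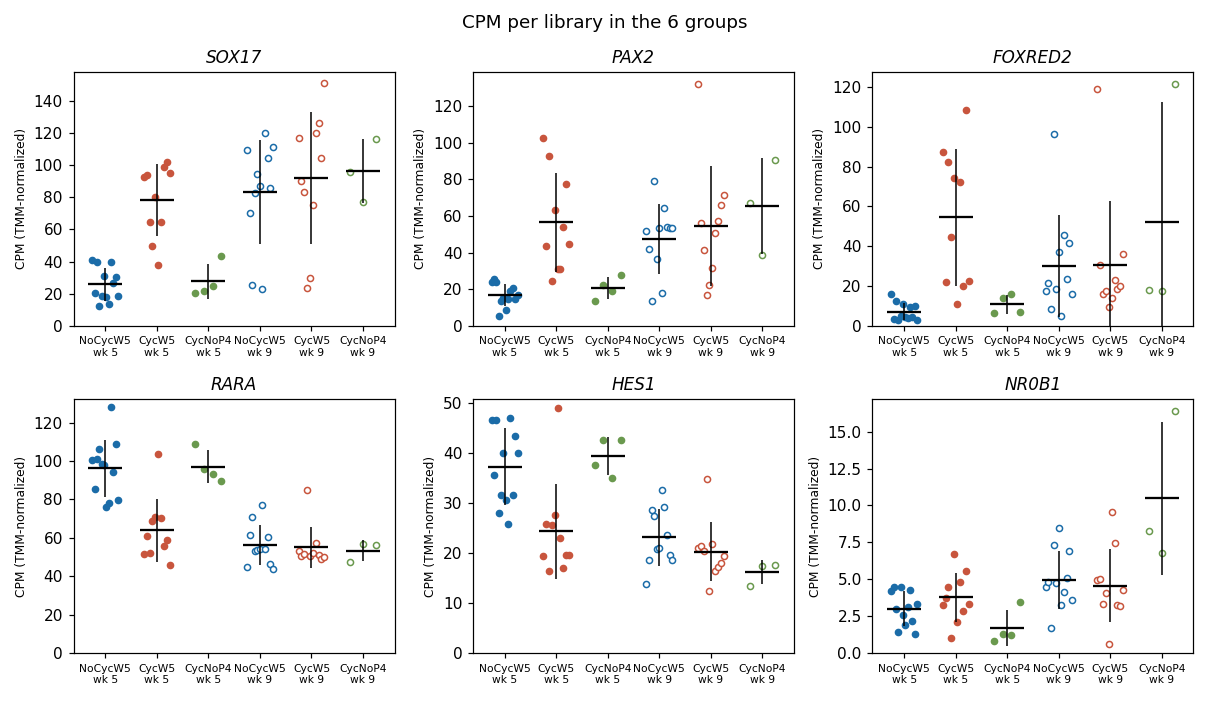
CPM (linear axis from 0) of 6 members in each library, by group and week; filled points are week 5, open points week 9, the horizontal bar is the mean and the vertical line 1 SD to each side, cut at 0. In CycNoP4 cows, SOX17 and PAX2 lie at the NoCycW5 level at week 5 and do not overlap between weeks, and RARA and HES1 show the opposite direction.

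FOXRED2 had the widest range of group means at week 5 of any member. In CycW5 cows at week 5 it ranged from 11.2 to 108 CPM (median 58.3), against 2.76 to 15.9 CPM (median 4.54) in NoCycW5 cows, a difference of 2.94 ± 0.46 that chose it. In NoCycW5 cows it rose by 2.09 ± 0.44 to week 9 (BH P = 0.000337), where it spread from 4.71 to 96.3 CPM. CycNoP4 cows at week 5 gave 6.33, 6.90, 14.0 and 15.9 CPM, lower than CycW5 cows with a log2 difference of −2.35 ± 0.60 (BH P = 0.00936). At week 9 these cows gave 17.3, 17.7 and 121 CPM, so the rise of 2.27 ± 0.81 (BH P = 0.0415) leaned on library 94. Without that library the difference was 0.67 (BH P = 0.624), and leaving out any of the 4 week 5 libraries also ended the call.

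Among the nuclear receptors and KLF genes, RARA and NR0B1 moved most clearly. RARA, the retinoic acid receptor alpha, measured 89.5, 93.2, 96.0 and 109 CPM at week 5 and 47.2, 56.2 and 56.6 CPM at week 9 in CycNoP4 cows. Those libraries did not overlap, and RARA fell by 0.86 on the log2 scale (SE 0.20, BH P = 0.00478). At week 5 it was at 76.0 to 128 CPM (median 98.0) in NoCycW5 and 45.8 to 104 CPM (median 60.0) in CycW5 cows. That difference of −0.58 ± 0.12 and the change of −0.77 ± 0.11 to week 9 in NoCycW5 cows both chose RARA. CycNoP4 cows exceeded CycW5 cows by 0.60 ± 0.15 (BH P = 0.00865) and differed from NoCycW5 cows by 0.02 (95% interval −0.27 to 0.32).

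NR0B1, a repressor of steroidogenic gene expression, showed the largest difference of any called member in CycNoP4 cows. It measured 0.796, 1.24, 1.29 and 3.48 CPM at week 5 and 6.78, 8.29 and 16.4 CPM at week 9 (2.62 ± 0.56, BH P = 0.00314). In the other cows its groups overlapped widely, with medians of 3.07 CPM in NoCycW5 and 3.51 CPM in CycW5 cows at week 5 and 4.74 and 4.17 CPM at week 9. NR0B1 was also 1 of the few members whose group means lay no closer together at week 9 than at week 5. KLF9, a hormone-responsive Krüppel-like factor of endometrium, measured 8.72, 9.93, 15.8 and 21 CPM at week 5 and 20.2, 21.1 and 25 CPM at week 9 in CycNoP4 cows. It rose by 0.67 ± 0.24 (BH P = 0.0431), with overlap through library 58, and the call ended when any 1 of 5 libraries was left out.

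NR2F1 was highest and NR2E1 lowest in NoCycW5 cows at week 5. NR2F1, the orphan nuclear receptor COUP-TFI, was at 183 to 364 CPM (median 279) in NoCycW5 cows at week 5, above most libraries of CycW5 (130 to 251 CPM) and CycNoP4 cows (127, 143, 152 and 268 CPM). It was lower with a log2 difference of −0.67 ± 0.19 in CycNoP4 than in NoCycW5 cows (BH P = 0.024) and fell by 0.53 on the log2 scale to week 9 in NoCycW5 cows (SE 0.16, BH P = 0.0084). The differences between CycW5 and NoCycW5 cows at week 5 (−0.61 ± 0.16) and week 9 (−0.32 ± 0.16) chose it. NR2E1, known from neural stem cells, did not overlap between NoCycW5 (0.353 to 0.610 CPM) and CycW5 cows (0.741 to 5.33 CPM) at week 5. That difference of 1.74 ± 0.31 chose it, and it rests on few reads. The oxysterol receptor NR1H2 and the heterodimer partner RXRB were called in no comparison.

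HOXD10, HOXD11, HOXC6 and HOXC9 had their highest group mean in NoCycW5 cows at week 5. HOXD10 was at 67.4 to 111 CPM (median 94.8) in these cows and at 35.4 to 57.0 CPM (median 49.3) at week 9, without overlap, a change of −0.94 ± 0.19 that chose it. In CycW5 cows at week 5 it was at 26.2 to 112 CPM (median 47.0), and library 57 alone lay above the NoCycW5 range. CycNoP4 cows at week 5 gave 28.5, 55.2, 58.2 and 71.1 CPM, lower than NoCycW5 cows with a log2 difference of −0.80 ± 0.26 (BH P = 0.0416) and different from CycW5 cows by 0.03 (95% interval −0.47 to 0.52). Leaving out any 1 of 10 libraries ended the call against NoCycW5 cows. In the same cows at week 9 it measured 36.5, 50.8 and 60.0 CPM, a change of −0.12 ± 0.34 that was not called.

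HOXD11, next to HOXD10 in the RefSeq annotation of the ARS-UCD2.0 assembly, gave a like order at week 5. It was at 29.2 to 55.0 CPM (median 45.7) in NoCycW5 and 10.8 to 57.3 CPM (median 21.02) in CycW5 cows, lower with a log2 difference of −0.92 ± 0.22 in the latter (BH P = 0.00184). Its change to week 9 in NoCycW5 cows, −1.17 ± 0.22 without overlap, chose it. CycNoP4 cows at week 5 lay between the other groups with 17.6, 31.6, 37.6 and 38 CPM, and neither difference was called.

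HOXC6 and HOXC9 were also lower than in NoCycW5 cows at week 5 in both comparisons with that group, at low levels. HOXC6 had medians of 2.29 CPM in NoCycW5 cows at week 5, 1.64 CPM in CycW5 cows at week 5 and 1.94 CPM in NoCycW5 cows at week 9, and was lower with a log2 difference of −0.74 ± 0.26 (BH P = 0.0279) and −0.85 ± 0.25 (BH P = 0.00711) than in the first. HOXC9, with medians of 0.728, 0.425 and 0.343 CPM in the same groups, was lower with a log2 difference of −0.88 ± 0.29 (BH P = 0.0218) and −1.21 ± 0.29 (BH P = 0.00115). Library 48 held the highest level of both genes in NoCycW5 cows at week 5, 7.70 and 2.08 CPM, and without it the week 5 call of each was lost (for HOXC6 also without library 61 or 65). HOXC11 differed by −0.65 ± 0.24 between CycW5 and NoCycW5 cows at week 5, which chose it. HOXC6 and HOXC9 are separated only by HOXC8, and HOXC9 and HOXC11 only by HOXC10. Whether the counting used strand is not given in the sources used here, so reads of antisense transcripts in these clusters may be included.

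**Figure D3:**
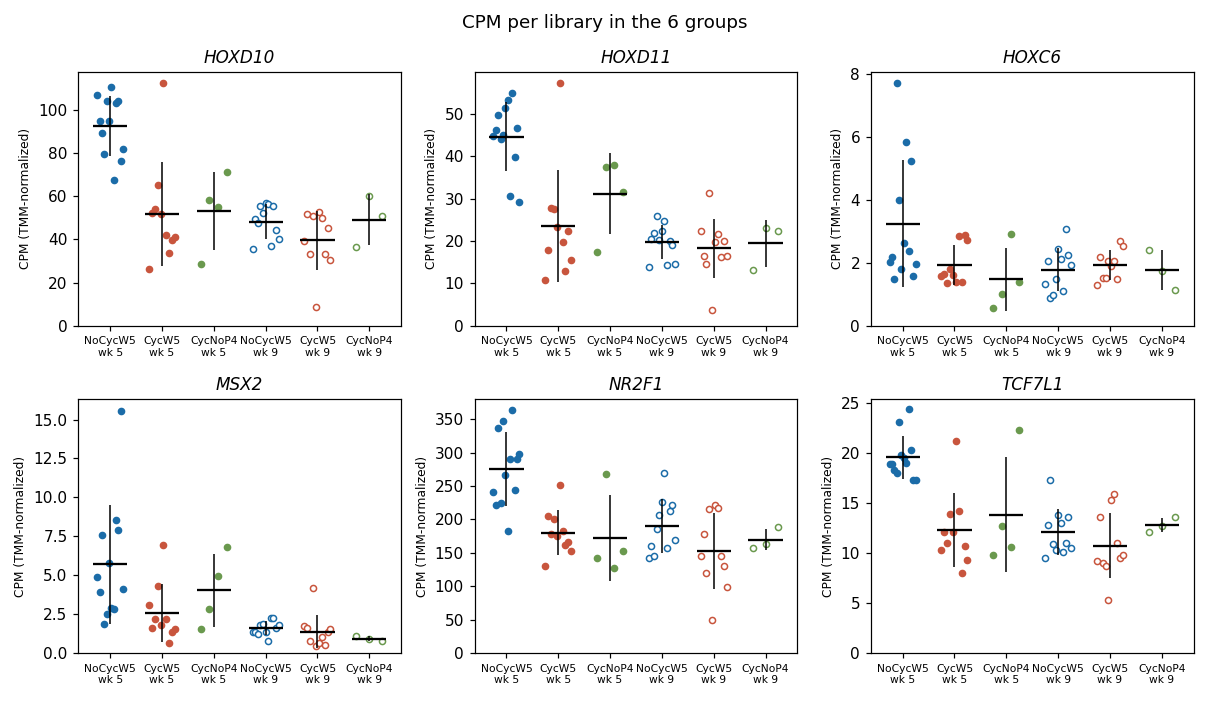
CPM (linear axis from 0) of 6 members in each library, by group and week, drawn as for SOX17. HOXD10, HOXD11, NR2F1 and TCF7L1 have their highest mean in NoCycW5 cows at week 5, and the single high CycW5 point at week 5 in HOXD10 and HOXD11 is library 57.

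MSX2, a homeobox factor downstream of BMP signals, fell from week 5 to week 9 in CycNoP4 cows. It measured 1.52, 2.84, 4.98 and 6.83 CPM at week 5 and 0.748, 0.928 and 1.13 CPM at week 9 in these cows, without overlap (−2.11 ± 0.68, BH P = 0.0251). Leaving out any 1 of 4 libraries ended that call. In NoCycW5 cows it went from 1.89 to 15.6 CPM (median 4.52) at week 5 to 0.753 to 2.26 CPM (median 1.60) at week 9, a change of −1.83 ± 0.36 that chose it. MSX2 also differed by −0.885 ± 0.377 between weeks in CycW5 cows and was not called there (BH P = 0.269). SIX2, a homeobox factor of mesenchymal progenitors, was at 0.879 to 1.71 CPM at week 5 and 0.341 to 0.444 CPM at week 9 in CycNoP4 cows, and its difference of −1.60 ± 0.69 was not called (BH P = 0.0886).

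HES1 and HEY2 are the Notch targets among the members. HES1, a transcriptional repressor, was at 25.8 to 47.0 CPM (median 37.8) in NoCycW5 and 16.4 to 49.0 CPM (median 21.4) in CycW5 cows at week 5, where only library 57 exceeded 27.6 CPM. It was lower with a log2 difference of −0.61 ± 0.16 in CycW5 cows (BH P = 0.00508). That test shares the NoCycW5 week 5 libraries with the comparison that chose HES1, in which it differed by −0.68 ± 0.16 between weeks. CycNoP4 cows at week 5 gave 34.9, 37.6, 42.6 and 42.6 CPM, higher than CycW5 cows by 0.69 ± 0.21 (BH P = 0.024). In these cows HES1 fell by 1.29 on the log2 scale to 13.4, 17.4 and 17.7 CPM at week 9 (SE 0.29, BH P = 0.00396), without overlap. HEY2, a related repressor of vessels and heart, measured 4.09, 5.02, 6.86 and 10.8 CPM in CycNoP4 cows at week 5 and was lower than in NoCycW5 cows (9.30 to 54.1 CPM, median 12.6) by −1.39 ± 0.44 (BH P = 0.0376). Its differences of −0.74 ± 0.28 between CycW5 and NoCycW5 cows (BH P = 0.0461) and −0.68 ± 0.28 between weeks in NoCycW5 cows (BH P = 0.05) were lost without library 48, which held the value of 54.1 CPM. They were lost without any of 10 of 22 and 13 of 23 single libraries in all, and both with limma-voom, with quality weights and with no filter on low counts. In CycNoP4 cows HEY2 differed by 0.86 ± 0.50 between weeks and was not called.

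Of the TCF/LEF and E-protein genes, TCF7L1 and TCF12 differed between groups. TCF7L1, mostly a repressor of Wnt targets, was at 17.3 to 24.5 CPM in NoCycW5 cows at week 5 and at 9.51 to 17.3 CPM at week 9, with no overlap, and fell by 0.69 on the log2 scale (SE 0.14, BH P = 0.000142). The week 5 difference between CycW5 and NoCycW5 cows, −0.67 ± 0.14, chose it. TCF12, an E protein that pairs with cell type-specific bHLH factors, measured 291, 348, 422 and 438 CPM at week 5 and 572, 574 and 808 CPM at week 9 in CycNoP4 cows. It rose by 0.80 ± 0.24 (BH P = 0.0169). The call ended when library 51 or 94 was left out or CycNoP4 libraries were fitted alone, while the difference stayed at 0.588 or more in every alternative. LEF1 was listed in 5 of the study's tables, yet its group medians stayed between 53.4 and 64.9 CPM. Its differences lay between −0.10 and 0.15, apart from its change in NoCycW5 minus that in CycW5 cows. That value was negative, from −0.195 to −0.057 over the alternatives.

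FOXS1, a forkhead factor known from pericytes, had its lowest group level in CycNoP4 cows at week 5. It measured 3.96, 5.8, 7.86 and 13.7 CPM there and 23.6, 34.6 and 34.6 CPM at week 9, without overlap (1.98 ± 0.52, BH P = 0.00896). Both other groups were higher at week 5, with medians of 20.9 CPM in NoCycW5 and 14.8 CPM in CycW5 cows, and CycNoP4 cows differed from them by −1.32 ± 0.40 (BH P = 0.0299) and −1.30 ± 0.40 (BH P = 0.0273). FOXS1 also rose by 0.73 ± 0.29 in NoCycW5 cows (BH P = 0.0433), a call that 14 of 23 single libraries ended when left out, and its change of 1.10 ± 0.31 in CycW5 cows chose it. The 3 endothelial markers with an identifier (CDH5, VWF and ESAM, of 8 listed) summed in CycNoP4 cows to 245 to 397 CPM at week 5 and 254 to 325 CPM at week 9. Their sums overlapped between the weeks, and VWF made up most of each sum. ESAM alone did not overlap, with 20.7 to 35.2 CPM at week 5 and 36.3 to 44.5 CPM at week 9, and its difference of 0.69 ± 0.29 was not called (BH P = 0.0839). At week 5 it was lower in CycNoP4 than in NoCycW5 cows with a log2 difference of −0.84 ± 0.22 (BH P = 0.0173). The part of endothelial markers in the FOXS1 result was not tested.

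FOXA3, a forkhead factor of endoderm, took the opposite direction. It was at 1.33 to 6.17 CPM (median 3.22) in NoCycW5 and 3.21 to 8.33 CPM (median 5.70) in CycW5 cows at week 5, higher by 0.85 ± 0.23 in the latter (BH P = 0.0056). That test shares the CycW5 week 5 libraries with the comparison that chose FOXA3, its change of −0.815 ± 0.245 to week 9 in CycW5 cows. CycNoP4 cows gave 2.03, 3.2, 6.67 and 15.1 CPM at week 5 and 1.962, 2.38 and 2.56 CPM at week 9, with overlap between the weeks. The fall of 1.55 on the log2 scale (SE 0.49, BH P = 0.0229) and the excess of 1.10 ± 0.37 over NoCycW5 cows at week 5 (BH P = 0.0466) rested on library 51. Without library 51 neither was called, and the values were −0.79 and 0.33. The call against NoCycW5 cows ended without any of 11 of 16 single libraries. Each of the 3 week 9 libraries also ended the call between weeks when left out.

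The remaining calls were of genes of several families. SOX15 measured 3.22, 3.43, 3.50 and 5.31 CPM at week 5 and 5.39, 6.62 and 7.79 CPM at week 9 in CycNoP4 cows and rose by 0.77 ± 0.24 (BH P = 0.0223), a call that 5 of the 7 libraries ended when left out. RUNX1T1, a corepressor, went from 8.95, 14.4, 15.2 and 22.6 CPM to 30.2, 35.7 and 35.8 CPM (1.15 ± 0.29, BH P = 0.00721). ATF6, a sensor of endoplasmic reticulum stress, measured 21.2, 43.4, 46.7 and 51.9 CPM in CycNoP4 cows at week 5 and was higher than in NoCycW5 cows (10.2 to 36.7 CPM, median 20.9) by 0.96 ± 0.26 (BH P = 0.0217). Chemerin (RARRES2) was lower than in NoCycW5 cows at week 5 in CycW5 cows with a log2 difference of −0.58 ± 0.21 (BH P = 0.032) and in CycNoP4 cows by −0.60 ± 0.19 (BH P = 0.0384). Its change of −0.50 ± 0.20 between weeks in NoCycW5 cows chose it. GATA5 fell by 0.89 on the log2 scale in NoCycW5 cows from week 5 to week 9 (SE 0.34, BH P = 0.0384), at medians of 0.922 and 0.489 CPM, a call that 8 of 23 single libraries, library 48 among them, ended when left out. GATA1, of erythroid and mast cells, was lower in CycW5 than in NoCycW5 cows at week 5 with a log2 difference of −1.04 ± 0.39 (BH P = 0.0443), at medians of 0.101 and 0.242 CPM, a call that 12 of 22 single libraries ended when left out. Its change of 0.80 ± 0.41 between weeks in CycW5 cows chose it.

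In all, 24 members were called in at least 1 comparison that had not chosen them, 20 were tested and called in none, and 4 were tested in none. Of the 20, FOSL2 (an AP-1 subunit), ELF4 and ETV2 (ETS factors) were chosen by the change over time in NoCycW5 cows, with differences of 0.77 ± 0.16, 0.45 ± 0.14 and −0.55 ± 0.17, and their differences in CycNoP4 cows were 0.49 ± 0.30, 0.26 ± 0.24 and −0.58 ± 0.30. In CycW5 cows their differences between weeks were 0.50 ± 0.17, 0.54 ± 0.15 and −0.22 ± 0.18, none of them called. FOXP4 was chosen by both comparisons with NoCycW5 cows at week 5 (−0.36 ± 0.14 and −0.50 ± 0.13) and FOXF1, of mesenchyme, by the first (−0.38 ± 0.13). FOXF1 and FOXC2 are separated by 1 gene in the RefSeq annotation, and FOXC2 differed by −0.60 ± 0.28 in the first comparison (BH P = 0.105). ATF7 was chosen with a difference of 0.19 ± 0.12. FOXN2, SOX18 (of endothelium), TCF4, PBXIP1 and TCF25 came from the microbiota lists alone, and their differences in CycNoP4 cows between weeks lay between −0.79 ± 0.34 for FOXN2 and 0.34 ± 0.32 for SOX18. TBX18 had at most 16 and SOX2 at most 15 reads in any library.

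Counted over comparisons, the members not chosen by CycW5 against NoCycW5 at week 5 were called in 10 of 29 cases (34.5%, 3 higher and 7 lower), beside 26.6% of 15483 genes (15.2% higher and 11.4% lower). For week 9 against week 5 in NoCycW5 cows, 8 of 25 were called (32%, 2 higher and 6 lower), beside 35.7% (19.4% higher and 16.3% lower). Both shares were near their background. Groups did not overlap for 1 of 42 members tested in the first comparison (background 0.316%) and for 3 of 42 in the second (0.775%), and 3 of these 4 were chosen by the comparison itself. By family, 7 of 8 homeobox genes were negative in each of these comparisons and PAX2 was the exception, with medians of −0.79 and −0.98 on the log2 scale where all genes tested had medians of −0.02 and −0.01. Of these 8 genes, 3 and 5 respectively had been chosen by the comparison itself.

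Few members differed between weeks in CycW5 cows or between groups at week 9. None of the 39 members tested was called by edgeR for week 9 against week 5 in CycW5 cows, where 0.0452% of all genes were, and 5 had an unadjusted P under 0.05. DESeq2 called 1, limma-voom 0, and limma-voom with library quality weights 6. At week 9 none of 39 was called by edgeR between CycW5 and NoCycW5 cows (background 0.00646%), 1 had an unadjusted P under 0.05, and DESeq2 and limma-voom called 0. The range of the 3 group means was wider at week 5 than at week 9 in 35 of the 40 members at 1 CPM or more. The share over all genes was not counted. Comparisons with NoCycW5 cows at week 5 chose 14 and 18 members, and the groups at week 9 chose 3. A wider range at week 5 was thus partly fixed by the choice of members. The median range was 0.672 at week 5 and 0.229 at week 9 on the log2 scale, where all genes tested gave 0.472 and 0.232. SOX17, for one, had medians of 86.7, 97.3 and 95.8 CPM in NoCycW5, CycW5 and CycNoP4 cows at week 9. Its libraries were not all alike within these groups.

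At week 9, 4 libraries held SOX17 within its range in NoCycW5 cows at week 5. These were 76 (25.6 CPM) and 91 (22.9 CPM) of NoCycW5 cows, where the others lay at 70.5 to 120 CPM, and 87 (23.3 CPM) and 89 (29.5 CPM) of CycW5 cows, where the others lay at 74.9 to 151 CPM. The same libraries held the lowest PAX2 levels of their groups, at 13.3, 18, 17 and 22.1 CPM. RARA was highest of its group in libraries 91 (77.0 CPM) and 87 (85.1 CPM). OXTR was highest (162 and 178 CPM) and FKBP5 lowest (68.9 and 57.6 CPM) in these 2 libraries too. With the 4 libraries left out together, an alternative chosen after seeing the data, 8 members were called for the weeks in NoCycW5 cows, 0 for the weeks in CycW5 cows, 0 between the groups at week 9 and 1 for the difference of changes. SOX17 then differed by 1.90 and PAX2 by 1.69 between weeks in NoCycW5 cows, and HEY2 was no longer called (−0.61, BH P = 0.0883).

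**Figure D4:**
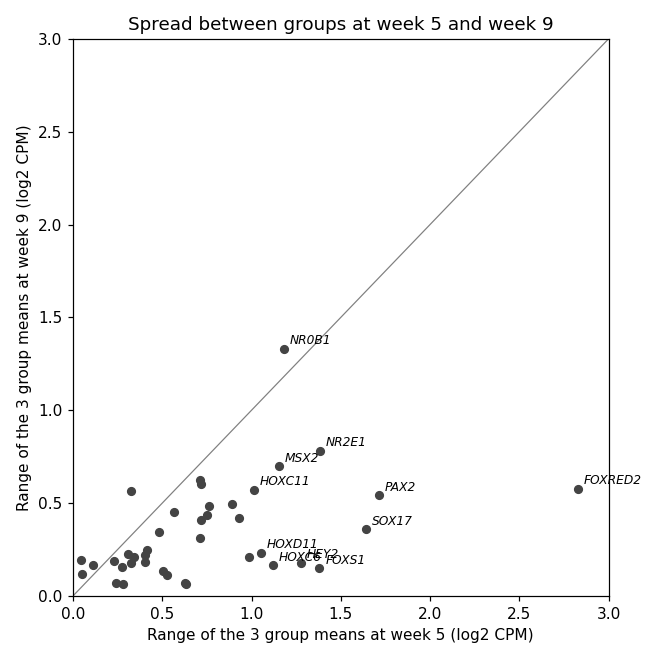
Range of the 3 group means (log2 CPM) at week 5 (horizontal axis) and week 9 (vertical axis) for the 40 members with at least 1 CPM in some group; the line marks equal ranges. In 35 of 40 the point lies below the line, and NR0B1 is the highest point. The choice of members by differences at or from week 5 partly fixed this.

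A difference between NoCycW5 and CycW5 cows in the change over time was called for 1 of the 14 members that none of its component comparisons had chosen (7.14%, beside 7.82% of all genes). That member was HOXC9, whose change in NoCycW5 cows minus that in CycW5 cows was −1.30 ± 0.42 (BH P = 0.0469). Among members chosen by a component, SOX17 differed by 1.44 ± 0.39, PAX2 by 1.53 ± 0.42, FOXRED2 by 2.92 ± 0.64, RARA by −0.56 ± 0.16 and HOXD11 by −0.81 ± 0.31.

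CycNoP4 cows at week 5 were set against both other groups. Against NoCycW5 cows 7 of 43 members were called (16.3%, beside 14.7% of 15738 genes), and against CycW5 cows 8 of 43 (18.6%, beside 17.7%). FOXS1 was called in both. SOX17, PAX2, RARA, HES1, SOX15, RUNX1T1 and FOXRED2 were called against CycW5 cows alone, and HOXD10, NR2F1, HEY2, RARRES2, ATF6 and FOXA3 against NoCycW5 cows alone. The difference between the 2 comparisons of a member is the CycW5 to NoCycW5 difference given above for it. Both comparisons share the CycNoP4 libraries and depended on single libraries. The CycW5 and NoCycW5 libraries on their other side had a part in choosing members. In the week 5 comparisons the calls of SOX17, RARA and FOXRED2 against CycW5 cows held with each library left out in turn, that of PAX2 ended without library 51 and that of HES1 without library 51 or 56. Each of the other calls ended without at least 2 of libraries 51, 56 and 58. Without library 51, 0 members were called against NoCycW5 cows and 3 against CycW5 cows, and without library 64, 14 were called against NoCycW5 cows.

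Because no library is shared between the changes over time in NoCycW5 and CycNoP4 cows, their signs were compared. Of the 17 tested members that the change in NoCycW5 cows had chosen, 16 had the same sign in CycNoP4 cows (94.1%) and 9 were called there (52.9%). RARRES2 was the exception. Over all 1435 tested genes on the same list the shares were 94.1% and 43.2%, and over all 15483 genes 66.4% and 20%, so the members were like the other listed genes in sign. The 25 members not chosen shared the sign in 14 cases (56%). Of the 13 tested members chosen by CycW5 against NoCycW5 at week 5, 11 had the same sign in the CycNoP4 change (84.6%, against 70.9% of 777 listed genes and 61.7% of all), HOXC11 and LEF1 being the exceptions.

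**Figure D5:**
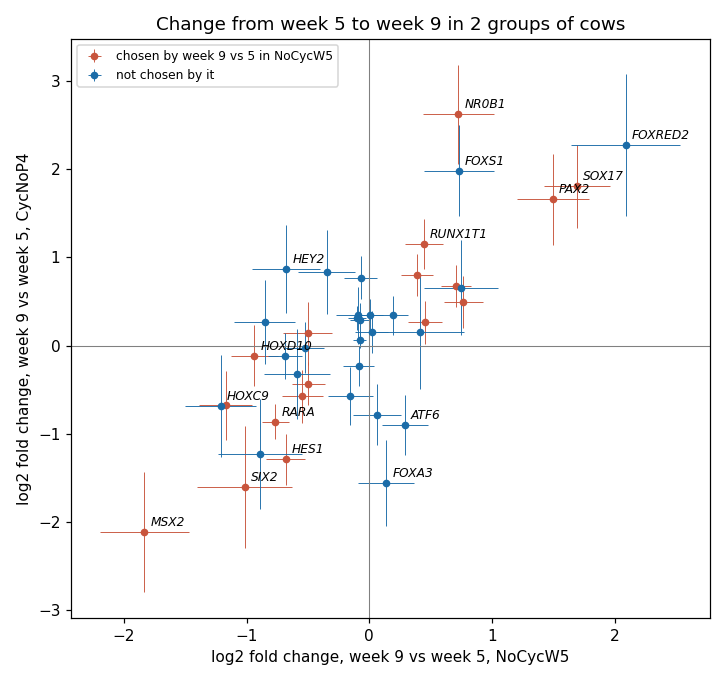
log2 fold change from week 5 to week 9 in NoCycW5 cows (horizontal axis) and CycNoP4 cows (vertical axis) for the 42 members tested in both, with lines of 1 SE to each side. Red points were chosen by the NoCycW5 comparison, and 16 of these 17 share their sign, from MSX2 at the lower left to SOX17 and PAX2 at the upper right.

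Other genes of the same pathways could be followed only where the study's lists gave them a symbol. Of the retinoid pathway, 5 of 16 genes had an identifier. CYP26A1, which degrades retinoic acid, and RDH10 and DHRS3, which act on retinol and retinal, rose in CycNoP4 cows while RARA fell (6.17 ± 1.84, BH P = 0.0173 for CYP26A1, 1.23 ± 0.35, BH P = 0.0148 for RDH10 and 1.11 ± 0.32, BH P = 0.0137 for DHRS3). Of 8 Wnt genes of 21, DKK1 (4.36 ± 0.83, BH P = 0.00151) and WNT11 (2.77 ± 0.78, BH P = 0.0131) rose and WNT4 (−2.79 ± 0.82, BH P = 0.0163) and SFRP2 (−1.58 ± 0.53, BH P = 0.0307) fell. Of 4 Notch genes of 17, NOTCH2 fell by 1.03 on the log2 scale (SE 0.34, BH P = 0.0272) and no other was called. Of 6 steroid receptor and co-regulator genes of 17, FKBP5 rose (1.76 ± 0.41, BH P = 0.00484) and ESR1 (−1.16 ± 0.42, BH P = 0.0435) and OXTR (−5.36 ± 1.46, BH P = 0.0112) fell. PGR had no identifier. Since every gene followed had been listed by the study in 1 comparison or another, these counts are not evidence about the pathways.

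Among the marker lists in the same comparison, CLDN7 rose (1.24 ± 0.43, BH P = 0.0368) and the other 5 epithelial, 1 stromal (PDGFRA, of 8) and 3 endothelial markers were not called. No smooth muscle (of 6), leukocyte (of 8), blood and mast cell (of 8) or proliferation marker (of 6) had an identifier, so these cell types were not followed. In CycNoP4 cows the stromal marker PDGFRA went from a median of 390 CPM at week 5 to 802 CPM at week 9. The weeks overlapped, at 268.8 to 725.1 CPM and 495.1 to 960.5 CPM, and the log2 difference of 0.761 was not called. Its median also went from 475.5 to 578.6 CPM in NoCycW5 cows and from 426.8 to 613.1 CPM in CycW5 cows.

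Single libraries set the extremes of several members. Library 57, labelled CycW5 at week 5, held the highest level of its group in 11 of the 40 members at 1 CPM or more, among them RARA (104 CPM), HES1 (49.0 CPM), HOXD10 (112 CPM), NR2F1 (251 CPM) and MSX2 (6.95 CPM), and its lowest level of SOX17 (38.1 CPM). Library 89, labelled CycW5 at week 9, was lowest of its group in 14 of 40. With libraries 48, 57 and 89 left out together, an alternative chosen after seeing the data, 8 members were called for CycW5 against NoCycW5 at week 5, 6 for the weeks in NoCycW5 cows, and 8 and 10 for CycNoP4 against NoCycW5 and CycW5 cows.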

How the data were processed

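Per the labels, total RNA of bovine endometrium was made into stranded mRNA libraries. The authors trimmed single-end reads, used HISAT2 to align them to UMD3.1 and FeatureCounts to count reads per Ensembl gene. The deposited counts carry no normalization. Members, lists and tests were chosen with earlier results of these data known. Symbols came only from the study's lists (2324 of 2729 genes had one), so genes of the same families outside those lists were not used here, contrary to plan, and no sequence or coordinate was printed.

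Counts were analysed in R 4.3.3 with edgeR 4.0.16 (TMM, filterByExpr, robust quasi-likelihood fit, BH over all genes tested). CycW5 and NoCycW5 libraries of both weeks were fitted as 4 group means, CycNoP4 comparisons at week 5 over the week 5 libraries, and CycNoP4 weeks over all 6 groups. SE was the log2 fold change over the root of F, intervals are 95%, and log2 CPM used a prior count of 2. Tests were tested on simulated data. Named with values by library were the 2 members of widest range per family, members called with an absolute log2 difference of at least 1 and a short list. Others were named after their values were seen. Alternatives were DESeq2 1.42.0 (size factors, Wald test), limma 3.58.1 (voom, with and without quality weights), no filter, a strict filter (1 CPM in 10 libraries), other sets of groups, each library left out and, chosen after seeing the data, 2 sets of libraries left out together.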

Additional observations from a re-analysis of the deposited data

Results flagged for a closer look

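Within groups of 4 to 10 libraries, 120 combinations of member and group were checked for a library whose gap to the others took a large share of the range (Dixon's test at the 95% level). The NoCycW5 groups (12 libraries at week 5 and 11 at week 9) and CycNoP4 cows at week 9 (3) fell outside these sizes and were not checked. Checks that share a library are not independent, so the chance rate of about 1 in 20 is only a rough guide. Of the 120 combinations, 12 stood out. Library 89 (CycW5, week 9) did so for 5 members, with 8.84 CPM of HOXD10 (others 30.5 to 52.7), 3.72 CPM of HOXD11 (14.6 to 31.5), 0.582 CPM of NR0B1 (3.18 to 9.55), 182 CPM of TCF12 (349 to 637) and 235 CPM of RARRES2 (49.2 to 92.9). Library 72 of the same group held 119 CPM of FOXRED2 (9.42 to 36) and 34.8 CPM of LEF1 (52.8 to 80.9), and library 87 held 85.1 CPM of RARA (48.9 to 57.3). In CycW5 cows at week 5, library 57 held 49.0 CPM of HES1 (16.4 to 27.6), library 54 held 5.33 CPM of NR2E1 (0.741 to 2.07) and library 66 held 0.171 CPM of SIX2 (0.520 to 1.05). In CycNoP4 cows at week 5, library 64 held 5.31 CPM of SOX15 (3.22 to 3.50).

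HOXC9 was the member not chosen by a component comparison whose change over time differed between NoCycW5 and CycW5 cows by a test of the difference itself (−1.30, BH P = 0.0469 in edgeR's interaction contrast). Its levels were below 1 CPM in every group, and 27 of 43 single libraries, library 48 among them, ended the call when left out. The call was also lost with limma-voom, with no filter on low counts, with all 6 groups in 1 fit and without libraries 48, 57 and 89 together.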

How the results depend on the processing

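Of 47 tested pairs of member and comparison that were called, 18 were called under every alternative. These held SOX17, RARA, HES1, FOXS1 and NR0B1 for week 9 against week 5 in CycNoP4 cows. Over 111 pairs and 3692 alternatives, 10 changed sign, in 2 members with differences near 0. ELF4 (change in NoCycW5 minus change in CycW5) went to 0.011 without libraries 48, 57 and 89, to 0.024 without 76, 87, 89 and 91 (both sets chosen after seeing the data) and to 0.035 without 1 CycW5 library of week 9 (single libraries left out, −0.154 to 0.035). LEF1 at week 9 went to −0.008 and −0.042 without the same sets and to −0.014, −0.026, −0.008, −0.001 and −0.04 without single libraries (up to 0.101). The cause was not tested.

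Members called for the change in NoCycW5 minus that in CycW5 were 1, and 0 with limma-voom, the strict filter (which drops HOXC9), all 6 groups or without libraries 48, 57 and 89 (single libraries left out, 0 to 1). With no filter 1 member was called, but HOXC9 was not. For CycNoP4 against NoCycW5 they were 7, and 4 with limma-voom (0 to 14), against CycW5 8 (3 to 11), and for weeks in CycNoP4 13, 20 with quality weights and 6 with CycNoP4 libraries alone (7 to 14). For weeks in CycW5 cows they were 0, 1 with DESeq2 and 6 with quality weights (0 to 1). For CycW5 against NoCycW5 they were 10 (8 to 12) at week 5 and 0 (0 to 0) at week 9, and for weeks in NoCycW5 8 (5 to 9). Over all genes, quality weights gave 8562 calls in place of 5533 for weeks in NoCycW5, 3181 in place of 7 in CycW5 (57 without libraries 76, 87, 89 and 91), 4952 in place of 3158 in CycNoP4 (1231 alone), 3161 in place of 1210 for the difference of changes (621 with limma-voom, 1848 with DESeq2) and 3718 in place of 2319 for CycNoP4 against NoCycW5. DESeq2 gave 243 for weeks in CycW5 and 12 in place of 1 at week 9. Without library 51, 132 genes were called for CycNoP4 against NoCycW5, and without library 64, 4981. No paired analysis was possible because the labels give no replicate numbers shared between groups and do not link libraries to cows. Members below 1 CPM rest on few reads, and intervals cover these libraries only.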
